A study of Mus musculus with 27 samples.

Results

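Sarcomere proteins and their fibre-type isoforms were described across gastrocnemius muscle, epididymal white adipose tissue (WAT) and liver of mice on 3 diets. The genes were chosen by symbol in the annotation of the array: myosin heavy chains (Myh1 to Myh8), myosin light chains (Myl1 to Myl4 and Mylpf), troponins (Tnnc, Tnni and Tnnt genes), tropomyosins (Tpm1 to Tpm3), the muscle alpha-actinins Actn2 and Actn3, the myosin binding proteins Mybpc1 and Mybpc2, the calsarcins Myoz1 to Myoz3, the myomesins Myom1 to Myom3, and Acta1, Actc1, Ttn, Neb, Tcap, Myot, Ldb3 and Des. The rule found 38 of the 19057 genes on the array, measured by 89 probes, and it used no measured value. Of these, 37 passed the filter on dim probes in muscle, 16 in WAT and 13 in liver.

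The mice were male C57BL/6J (the strain of 1 label was spelled C56BL/6J), 4 weeks old on arrival and housed 1 to a cage. The UR group ate the high-fat diet with 0.05% (w/w) ursolic acid, a plant triterpenoid. The HFD group ate the same diet, with 20% fat and 1% cholesterol, without the compound, and the ND group ate a normal diet. All groups were fed for 16 weeks and fasted overnight before tissue collection. Each tissue of each diet gave 3 arrays, and each array held RNA pooled from several mice. The sources used do not state how many mice entered a pool, and the unit of replication is therefore the pool, with 3 per group. The limma p-values use the spread among pools over the 3 diets and also borrow from the spread of other genes. In muscle that borrowed part had 8.2 prior degrees of freedom. Over the 9 muscle arrays, 35.5 to 38.1% of probes were detected, and the total signal lay between 25797190 and 31855720.

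A sarcomere is the contractile unit of striated muscle, in which thick filaments of myosin pull on thin filaments of actin, tropomyosin and troponin that are anchored in the Z-disc. Slow and fast muscle fibres are built from different isoforms of nearly every one of these proteins, and a muscle can shift its isoform mix with activity, innervation, hormones and diet. Mouse gastrocnemius is a mixed muscle in which fast fibres predominate, and titin and nebulin, the giant proteins of the sarcomere, span its filaments in all fibre types. In whole-tissue RNA, fewer fibres of a type and less RNA per fibre cannot be told apart.

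These genes set the muscle arrays apart from those of WAT and liver. In muscle, 36 of the 38 genes were detected on all 9 arrays, compared with 11 in WAT and 5 in liver, and the cardiac troponin I gene Tnni3 was the 1 gene detected on no muscle array. The median over the genes was 14.50 on the log2 signal scale in muscle, 7.31 in WAT and 7.29 in liver. Within muscle, the slow genes Mybpc1 (14.88) and Myoz2 (14.73) had higher means than their fast partners Mybpc2 (12.02) and Myoz1 (12.55). The fast genes Tnni2 (15.92) and Myh1 (13.79) had higher means than the slow Tnni1 (12.81) and Myh7 (11.48). Fast Actn3 averaged 11.28 and Myh4 10.42. Whether these signals matched the fibre mix of gastrocnemius was not tested. Myh2 (the type IIa heavy chain), the embryonic Myh3 and the cardiac Tnnt2 were not listed in the annotation used here. Many of these probes lay near the top of the scale. Of the 32 probes with a deposited signal above 50000 on all 9 muscle arrays, 11 (34.4%) stood for genes of the set, namely Acta1, Actn2, Myl1, Myl2, Myl3, Tcap, Tnnc2, Tnni2, Tnnt1, Tpm2 and Tpm3, while the brightest signal of an array was 63376 to 68289. The log2 fold changes of these 11 genes lay between -0.10 and 0.03 for UR compared with HFD and between -0.04 and 0.12 for HFD compared with ND. Whether signals so close to the maximum still follow the amount of RNA was not tested.

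**Figure D1:**
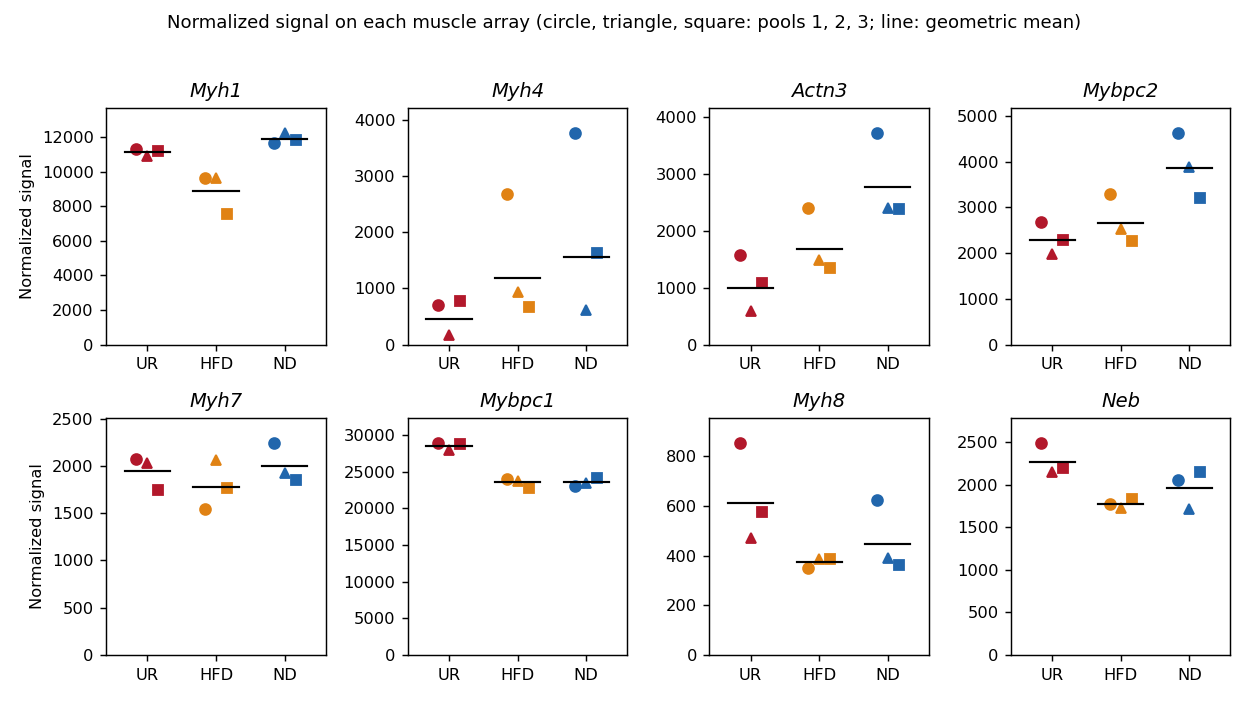
Normalised signal (linear axis from 0, arbitrary units) of 8 genes on the 9 gastrocnemius arrays, by diet, with a circle, triangle and square for pools 1, 2 and 3 and a line at the geometric mean of each diet. Myh1 is lower on the 3 HFD arrays than on all UR and ND arrays, whereas the points of Myh4 and Actn3 are spread widely within each diet.

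Both diet comparisons moved a minority of the sarcomere genes. In muscle, 7 of 37 genes passed the test for UR compared with HFD (limma, Benjamini-Hochberg adjusted p below 0.05), 6 higher and 1 lower, where 22.5% of all 9313 genes tested passed, 11.5% upward and 11% downward. The higher genes were Mybpc1, Myh1, Myh8, Myot, Neb and Tpm1, and the lower gene was Myh6. In HFD compared with ND, 8 of 37 genes passed, where 15.4% of all genes did, 7.61% upward and 7.76% downward. Acta1, Actc1, Ldb3 and Myom3 were higher in HFD, and Mybpc2, Myh1, Myom1 and Myoz1 were lower. Both comparisons use the same 3 HFD arrays, so a high or low HFD value enters both with opposite sign.

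These counts depended on the scaling of the arrays. After quantile normalisation, 709 genes of all kinds were called higher and 723 lower in HFD compared with ND, and scaling each array to a common median instead gave 72 higher and 1888 lower, with the median of all genes at -0.11 in place of 0.01. Under that scaling 0 of the 37 sarcomere genes were higher in HFD and 9 were lower. The 4 upward calls did not hold, while the calls of Mybpc2, Myh1, Myom1 and Myoz1 held. Because that scaling moved the median of all genes downward, it favours lower calls over higher ones. It therefore cannot tell whether the upward and the downward calls differ in firmness. All genes were split 1073 higher to 1020 lower after quantile normalisation and 933 to 204 after median scaling for UR compared with HFD, and the sarcomere genes 6 to 1 and 4 to 3.

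The adult myosin heavy chains set the shortening speed of a fibre. Myh1, the type IIx heavy chain of fast fibres, had normalised signals of 11308, 10901 and 11211 in the UR pools, 9640, 9620 and 7575 in the HFD pools and 11671, 12219 and 11806 in the ND pools. The HFD arrays did not overlap with either other group. Myh1 was higher in UR than in HFD by 0.33 on the log2 scale (SE 0.07, adjusted p = 0.00783, limma) and lower in HFD than in ND by a log2 fold change of -0.42 (SE 0.07, adjusted p = 0.00258, limma). Between UR and ND the log2 fold change was -0.09, which did not pass (adjusted p = 0.397, limma), although the 3 UR arrays lay just below the 3 ND arrays. A second, dimmer probe of Myh1 did pass between UR and ND, with a log2 fold change of -0.32 (adjusted p = 0.0317, limma). No pool left out ended the Myh1 calls against HFD or ND, but neither passed by the methods' t-test after adjustment, and UR compared with HFD did not pass by rank products.

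Myh4, the type IIb heavy chain of the fastest fibres, had signals of 704, 164 and 777 in UR, 2679, 937 and 664 in HFD and 3761, 609 and 1630 in ND. Pools of the same diet differed by more than the diets did, and on the second UR array Myh4 was not detected. The log2 fold change of -1.40 for UR compared with HFD had an SE of 0.64 and did not pass (adjusted p = 0.126, limma), nor did -0.39 for HFD compared with ND (adjusted p = 0.728, limma) or -1.79 for UR compared with ND (adjusted p = 0.0698, limma). The pooled within-group SD of Myh4 was 1.21 on the log2 scale, compared with a median of 0.07 over all genes.

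Myh7, the slow heavy chain shared with the heart, gave 2079, 2028 and 1749 in UR, 1547, 2067 and 1770 in HFD and 2239, 1930 and 1850 in ND, and the groups overlapped. Its log2 fold changes were 0.13 for UR compared with HFD (adjusted p = 0.365, limma) and -0.17 for HFD compared with ND (adjusted p = 0.282, limma). By limma after quantile normalisation, the type IIx gene was thus the 1 adult heavy chain with a probe that passed between diets in muscle. Other settings gave further calls, since Myh4 passed by rank products in all 3 comparisons. With the replicate number as a block Myh4 passed for UR compared with HFD and for UR compared with ND, and without ND pool 2 for the latter. With arrays scaled to a common median Myh4 passed for UR compared with ND (adjusted p = 0.00569, limma) and Myh7 for HFD compared with ND (log2 fold change -0.33, adjusted p = 0.0424, limma).

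Among fast-fibre partners of these myosins, Actn3 and Mybpc2 had their lowest group mean in UR and their highest in ND. Actn3, the fast-fibre alpha-actinin that crosslinks actin at the Z-disc, had signals of 1577, 583 and 1080 in UR, 2403, 1492 and 1345 in HFD and 3717, 2406 and 2383 in ND. The UR arrays lay wholly below the ND arrays, and the HFD arrays overlapped with both groups. The log2 fold change of Actn3 was -1.47 for UR compared with ND (SE 0.29, adjusted p = 0.00388, limma), whereas -0.76 for UR compared with HFD (adjusted p = 0.0700, limma) and -0.71 for HFD compared with ND (adjusted p = 0.109, limma) did not pass. All 3 kept probes of Actn3 fell in UR compared with ND. The call of Actn3 for that comparison was lost with a robust fit of the variance and by the methods' t-test after adjustment.

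Mybpc2, the fast isoform of myosin binding protein C, gave 2673, 1973 and 2296 in UR, 3303, 2528 and 2263 in HFD and 4624, 3880 and 3215 in ND. It fell in HFD compared with ND by 0.54 on the log2 scale (SE 0.14, adjusted p = 0.0224, limma), although the highest HFD array lay above the lowest ND array, and the call ended without either of 2 ND pools or 2 HFD pools (adjusted p up to 0.0876, limma). That call of Mybpc2 also ended with a robust fit of the variance and by the methods' t-test, unadjusted or adjusted. The log2 fold change was -0.75 for UR compared with ND (SE 0.14, adjusted p = 0.00331, limma), with no overlap, and for UR compared with HFD it was -0.21 (adjusted p = 0.284, limma). Myoz1, the fast-fibre calsarcin that tethers calcineurin to the Z-disc, had signals of 4384, 3958 and 4076 in UR, 4219, 3920 and 3885 in HFD and 4867, 4624 and 4718 in ND. All 6 arrays of the high-fat groups lay below the 3 ND arrays, with log2 fold changes of -0.24 for HFD compared with ND (SE 0.05, adjusted p = 0.00970, limma) and -0.20 for UR compared with ND (adjusted p = 0.0238, limma), of which the second was lost without any 1 of 4 pools (adjusted p up to 0.102, limma).

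The within-group spread of these fast genes ran across diets. Besides Myh4, the pooled SD was 0.53 for Actn3 and 0.26 for Mybpc2 on the log2 scale. Actn3, Mybpc2 and the fast-fibre calcium buffer Pvalb, which was singled out after its values were seen, were highest in the first pool of every diet, and all of them, with Myh4, were lowest in the second pool among the UR arrays. Pvalb had 12600, 7832 and 10001 in UR, 15277, 10471 and 8910 in HFD and 19761, 17760 and 16660 in ND. Which mice made up each pool is not known here, and the part of the pools in these differences was not tested.

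Of the 12 fast genes tested, 2 (Myh1 and Tpm1, 16.7%) were higher and 0 lower in UR compared with HFD. Of all genes 11.5% were higher and 11% lower. The median log2 fold change of the fast genes was -0.02, equal to the -0.02 over all genes. In HFD compared with ND, 0 were higher and 3 (Mybpc2, Myh1 and Myoz1, 25%) were lower, beside 7.61% and 7.76% of all genes. The median of the fast genes was -0.10 beside 0.01 over all genes. In UR compared with ND, where 17.1% of all genes passed, 9.36% upward and 7.77% downward, 13 of the 37 sarcomere genes passed, 7 higher and 6 lower, and among fast genes 2 were higher and 4 lower. Scaling to a common median turned the split of all genes in that comparison to 326 higher and 1744 lower, in place of 872 and 724. The split of the sarcomere genes became 0 higher and 10 lower, so that none of the 7 upward calls for UR compared with ND held under it. With the median of all genes moved to -0.10, that scaling again favours lower calls and cannot rank upward and downward calls by firmness. Tnnt3, the fast troponin T, was higher (0.12, adjusted p = 0.0464, limma) under quantile normalisation, and its sign turned to -0.05 when arrays were scaled to a common median. Mylpf, the regulatory light chain of fast myosin, was lower in UR than in ND (log2 fold change -0.18, adjusted p = 0.0305, limma), with signals of 42433, 41270 and 37324 in UR, 42907, 41912 and 38419 in HFD and 47104, 45865 and 44356 in ND. That call was lost without any 1 of 4 pools (adjusted p up to 0.131, limma), and the second kept probe of Mylpf gave 0.04. Tpm1, the alpha-tropomyosin that prevails in fast fibres, had 1060, 1039 and 929 in UR, 899, 854 and 855 in HFD and 754, 837 and 759 in ND. It was higher in UR than in HFD by 0.21 on the log2 scale (SE 0.06, adjusted p = 0.0301, limma), a call that ended without any of 2 HFD pools or 2 UR pools (highest adjusted p = 0.103, limma), and higher in UR than in ND by 0.36 (adjusted p = 0.00215, limma). In the comparison of tissues above, this Tpm1 probe had a mean log2 signal of 10.38 in muscle, 12.07 in WAT and 10.72 in liver. Its signal was thus lowest in muscle. Tpm1 was counted as a fast gene by its symbol, and whether the probe reads a fast-fibre transcript was not tested. The other fast genes tested, Myl1, Tnnc2, Tnni2 and Myom2, passed in none of the 3 comparisons, with log2 fold changes between -0.06 and 0.09.

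Of the 9 slow genes, Mybpc1 was the 1 (11.1%) that passed for UR compared with HFD, where 22.5% of all genes passed. For HFD compared with ND, where 15.4% of all genes passed, 0 slow genes passed by limma. In that comparison 1 slow gene had an unadjusted p below 0.05, 0 passed by rank products and 0 by the methods' t-test after adjustment. Mybpc1, the slow isoform of myosin binding protein C, had signals of 28827, 27929 and 28710 in UR, 24040, 23750 and 22816 in HFD and 23000, 23427 and 24165 in ND. The UR arrays stood above all 6 others, and the HFD and ND arrays overlapped. Mybpc1 rose in UR compared with HFD by 0.28 on the log2 scale (SE 0.04, adjusted p = 0.000544, limma) and compared with ND by 0.28 (adjusted p = 0.000658, limma), with a log2 fold change of 0.00 for HFD compared with ND. Its brightest probe and the 2 dimmest of its 4 kept probes passed for UR compared with HFD, but the second brightest, the brightest under 30000 on every array, gave 0.07 (adjusted p = 0.441, limma). Thus after quantile normalisation the slow isoform of this protein was higher and the fast isoform Mybpc2 lower in UR than in ND. Under median scaling Mybpc1 gave 0.13 for that comparison (adjusted p = 0.17, limma) and the call of Mybpc2 held. Median scaling moved the median of all genes downward in that comparison, which favours a lower call over a higher one.

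Few other slow genes passed, and those that did lay on both sides of 0. Tnni1, the slow troponin I, had 5479, 5238 and 6210 in UR, 5029, 4515 and 5773 in HFD and 4699, 5275 and 5135 in ND, with overlap between all groups. Between UR and ND, the slow light chain Myl3 was higher (0.11, adjusted p = 0.0451, limma), whereas the slow troponin C gene Tnnc1 (-0.13, adjusted p = 0.0428, limma) and the slow tropomyosin gene Tpm3 (-0.15, adjusted p = 0.0265, limma) were lower, all 3 on probes close to the top of the scale. These calls were lost without any 1 of 8 pools for Myl3 (adjusted p up to 0.125, limma), of 6 for Tnnc1 (up to 0.199) and of 4 for Tpm3 (up to 0.102), and the other 5 kept probes of Tpm3 were not called for UR compared with ND. Myl2 (slow regulatory light chain), Tnnt1 (slow troponin T) and Myoz2 (slow-fibre calsarcin) passed in none of the 3 comparisons, with log2 fold changes between -0.04 and 0.03. The median log2 fold change over the 9 slow genes was 0.02 for UR compared with HFD, 0.00 for HFD compared with ND and 0.01 for UR compared with ND.

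**Figure D2:**
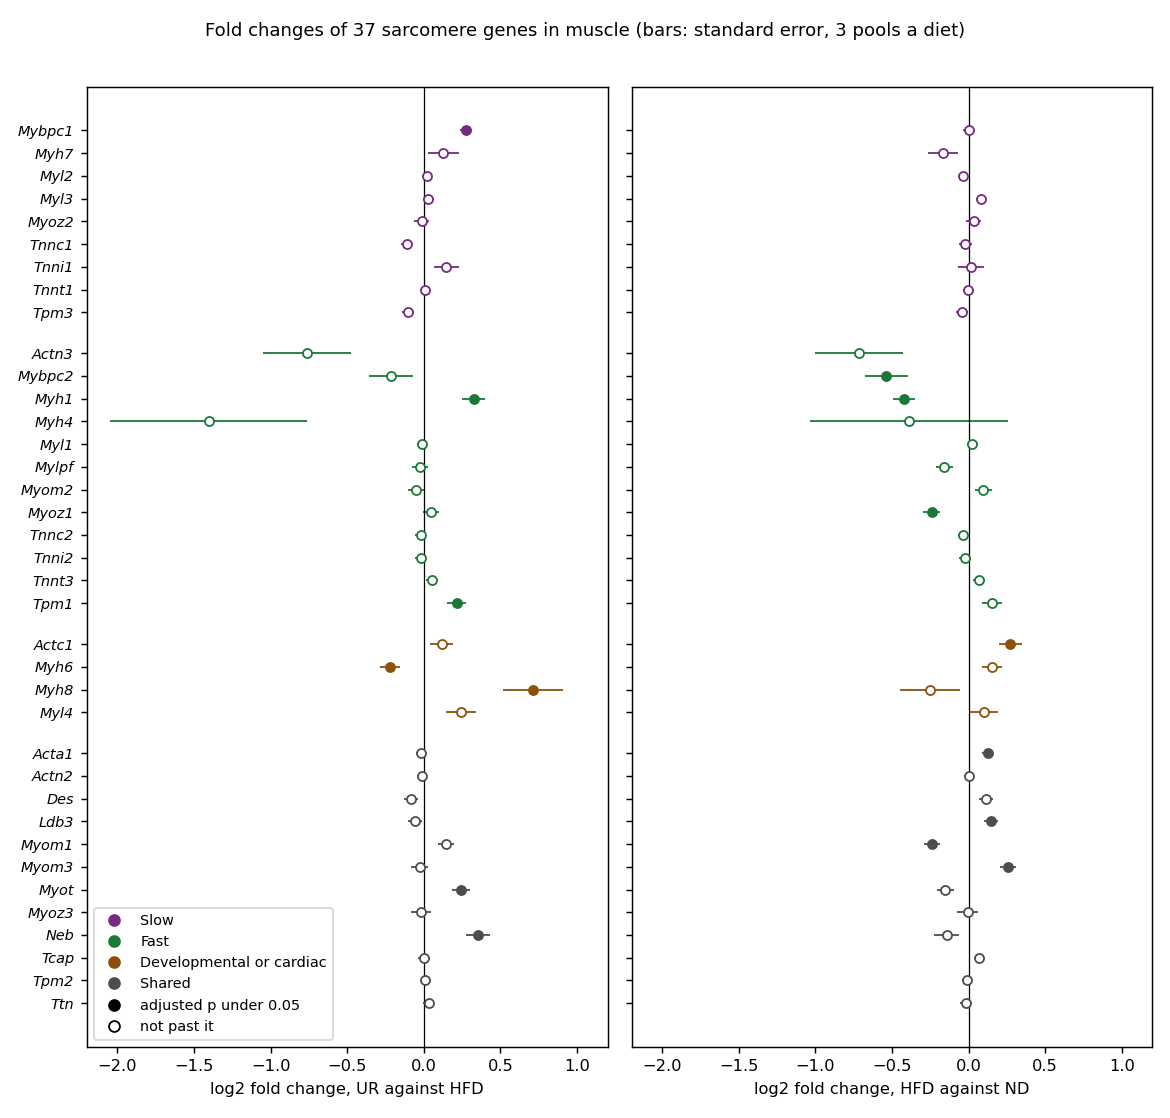
Log2 fold changes of the 37 sarcomere genes tested in gastrocnemius muscle, coloured by class, for UR compared with HFD (left) and HFD compared with ND (right), with points at the limma estimate, bars of 1 standard error and filled points for an adjusted p below 0.05. Most estimates lie close to 0, the widest bars belong to Myh4, and Myh1 lies on opposite sides of 0 in the panels, which share the HFD arrays.

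Developmental and cardiac isoforms are expressed in embryonic, newborn or heart muscle and, at low levels, in adult limb muscle, where they also return with regeneration. Myh8, the perinatal heavy chain, had 852, 470 and 575 in UR, 350, 387 and 387 in HFD and 625, 390 and 363 in ND. The UR arrays lay above the HFD arrays and overlapped with the ND arrays. Myh8 was higher in UR than in HFD by 0.71 on the log2 scale (SE 0.19, adjusted p = 0.0203, limma), but without the first UR pool the log2 fold change was 0.47 (adjusted p = 0.0713, limma), without the first HFD pool it was 0.66 (adjusted p = 0.0652, limma), and the other 2 probes of the gene gave -0.03 and 0.09. The call was also lost with a robust fit of the variance and by the methods' t-test, unadjusted or adjusted. Myh6, the alpha heavy chain of the heart, was the 1 sarcomere gene that fell in UR compared with HFD, with 5311, 5432 and 5410 in UR, 6245, 6897 and 5732 in HFD and 5997, 5712 and 5222 in ND (log2 fold change -0.22, SE 0.07, adjusted p = 0.0292, limma). That call ended without any 1 of 5 pools, with -0.15 (adjusted p = 0.111, limma) when the second HFD pool was left out. In the comparison of tissues above, the Myh6 probe had a mean log2 signal of 12.95 in muscle, above Myh7 (11.48) and Myh4 (10.42). Whether the Myh6 probe reads the cardiac transcript was not tested.

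Actc1, the cardiac alpha-actin, had 1676, 1419 and 1460 in UR, 1390, 1317 and 1490 in HFD and 1201, 1053 and 1223 in ND. Both high-fat groups lay above ND on every array. Actc1 was higher in HFD than in ND by 0.27 (SE 0.08, adjusted p = 0.0277, limma), a call lost without any 1 of 3 pools (adjusted p up to 0.11, limma), and higher in UR than in ND by 0.39 (adjusted p = 0.00389, limma). Its second probe gave 0.02 for HFD compared with ND, which did not pass, and 0.36 for UR compared with HFD, which did. On the brighter probe the latter was 0.12 and did not pass. With the mean of the probes the HFD call was lost. Myl4, the atrial and embryonic light chain, had 2238, 1766 and 1755 in UR, 1669, 1516 and 1658 in HFD and 1727, 1446 and 1370 in ND. It was higher in UR than in ND by 0.34 (adjusted p = 0.0276, limma), a call lost without any 1 of 3 pools, while 0.24 for UR compared with HFD did not pass (adjusted p = 0.0828, limma).

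Among genes shared by slow and fast fibres, 2 of 12 (Neb and Myot) were higher in UR than in HFD, or 16.7% called beside 22.5% of all genes. In HFD compared with ND, 3 (Acta1, Ldb3 and Myom3) were higher and 1 (Myom1) was lower, or 33.3% called beside 15.4% of all genes. Their median log2 fold change was -0.01 for UR compared with HFD and 0.00 for HFD compared with ND. The Z-disc alpha-actinin Actn2, the intermediate filament protein desmin (Des), Myoz3, the titin cap Tcap, Tpm2 and the brightest Ttn probe passed in none of the 3 comparisons, with log2 fold changes between -0.08 and 0.11. Neb encodes nebulin, which runs along the thin filament and is known for setting its length. Its signals were 2483, 2149 and 2192 in UR, 1771, 1726 and 1837 in HFD and 2059, 1708 and 2149 in ND, so that UR lay above HFD and the ND arrays reached into the HFD range. Neb rose in UR compared with HFD by 0.35 (SE 0.08, adjusted p = 0.00771, limma). Myot encodes myotilin, a Z-disc protein that binds alpha-actinin and filamin. It had 9973, 10278 and 9133 in UR, 7732, 8572 and 8536 in HFD and 9116, 9567 and 8894 in ND, with HFD below both other groups. Myot rose in UR compared with HFD by 0.24 (SE 0.06, adjusted p = 0.00927, limma) but did not pass when arrays were scaled to a common median (0.19, adjusted p = 0.15, limma), and its second probe gave -0.17 (adjusted p = 0.0868, limma).

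Myomesins crosslink myosin in the M-band at the centre of the sarcomere, and the pair of them that passed moved oppositely. Myom1 had 19927, 20595 and 21475 in UR, 18298, 17376 and 20473 in HFD and 22110, 21842 and 22110 in ND, and it fell in HFD compared with ND by 0.24 on the log2 scale (SE 0.05, adjusted p = 0.0118, limma), while its second probe gave 0.11 for HFD compared with ND (adjusted p = 0.228, limma). Myom3 had 18005, 18584 and 17500 in UR, 17678, 20184 and 17343 in HFD and 15140, 15604 and 15385 in ND. Both high-fat groups lay above ND, by 0.26 for HFD (SE 0.05, adjusted p = 0.00763, limma) and 0.23 for UR (adjusted p = 0.0112, limma). Both calls were lost under median scaling (adjusted p = 0.183 for HFD, limma), and that of UR was also lost without UR pool 2. Myom3 is the myomesin known from fibres of intermediate speed.

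Acta1, the skeletal alpha-actin of the thin filament, had 61548, 60466 and 59077 in UR, 60140, 62503 and 60466 in HFD and 56628, 56628 and 54691 in ND, and it was higher in HFD than in ND by 0.12 (SE 0.04, adjusted p = 0.0328, limma). Ldb3 encodes ZASP (cypher), a Z-disc scaffold. It had 9211, 9013 and 8561 in UR, 9064, 9542 and 9249 in HFD and 8299, 8234 and 8680 in ND, with a log2 fold change of 0.14 for HFD compared with ND (SE 0.05, adjusted p = 0.0481, limma). Both calls were small and were lost when single pools were left out, in 5 cases for Acta1 (adjusted p up to 0.102, limma) and in 8 for Ldb3 (adjusted p up to 0.13, limma), and without any normalisation the log2 fold change of Ldb3 turned to -0.01.

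Markers of non-fibre cells moved with the UR diet in the same muscle arrays. Of all genes, 11.5% were higher in UR compared with HFD, and 7.76% were lower in HFD compared with ND. In UR compared with HFD, 5 of 6 fibroblast markers tested were higher, with sums of 17055 to 18500 in UR and 13466 to 14483 in HFD, 5 of 6 macrophage markers (sums 1984 to 2297 in UR and 1542 to 1628 in HFD), 3 of 4 tendon markers (1376 to 1558 in UR and 1060 to 1259 in HFD) and 2 of 3 smooth muscle markers (8174 to 8970 in UR and 6531 to 6977 in HFD). The brightest marker weighs most in such a sum. Most of the fibroblast sum was Dcn, with 14603, 14158 and 14495 in UR and 11591, 11160 and 12124 in HFD. Acta2 was the brightest smooth muscle marker, with 5718, 4793 and 5037 in UR and 4100, 3733 and 4219 in HFD. The adipocyte sums were 958 to 1902 in UR and 920 to 1087 in HFD, with 1 of 3 markers higher. Of the endothelial markers 1 of 5 was higher, of the Schwann cell markers 1 of 2, of the erythroid markers 0 of 2, and hepatocyte and mesothelium markers did not pass the detection filter. In HFD compared with ND, 1 of 6 fibroblast and 2 of 6 macrophage markers were lower. The share of probes detected was 37.6 to 38.1% in UR, 35.5 to 35.8% in HFD and 35.8 to 36.7% in ND. The part of these cell types and of detection in the sarcomere results was not tested.

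Promoter windows are shown for 4 genes called between diets in muscle after quantile normalisation, with the limits of these calls given above. They are the fast and perinatal heavy chain genes Myh1 and Myh8, and the slow and fast isoforms of myosin binding protein C. Under that normalisation the slow and fast isoforms were called in opposite directions in UR compared with ND. Each window runs from 250 bases before to 50 bases after the annotated transcript start, 5′ to 3′ on the gene's strand, from RefSeq on GRCm38.p6, and capitals mark the motif matches found by a search of both strands. In Myh1 (chr11:67199852-67200151, plus strand) they are a MEF2 motif, a TATAAA match and a CATTCC match on the opposite strand, read here as GGAATG; in Myh8 (chr11:67276874-67277173, plus strand) a MEF2 motif; in Mybpc1 (chr10:88605103-88605402, minus strand) a CAGCTG match; and in Mybpc2 (chr7:44524620-44524919, minus strand) a CATTCC match on the opposite strand.
Myh1: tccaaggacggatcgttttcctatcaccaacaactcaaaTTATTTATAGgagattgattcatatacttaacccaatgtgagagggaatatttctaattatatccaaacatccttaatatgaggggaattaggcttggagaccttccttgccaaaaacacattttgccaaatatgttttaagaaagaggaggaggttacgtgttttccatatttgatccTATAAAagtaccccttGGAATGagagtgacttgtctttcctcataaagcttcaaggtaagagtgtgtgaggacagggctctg
Myh8: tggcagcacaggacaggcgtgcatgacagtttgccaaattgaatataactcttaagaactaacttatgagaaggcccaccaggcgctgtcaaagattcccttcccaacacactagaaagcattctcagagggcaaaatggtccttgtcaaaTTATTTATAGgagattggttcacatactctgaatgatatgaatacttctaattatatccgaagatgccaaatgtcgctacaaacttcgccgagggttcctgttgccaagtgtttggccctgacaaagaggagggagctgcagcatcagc
Mybpc1: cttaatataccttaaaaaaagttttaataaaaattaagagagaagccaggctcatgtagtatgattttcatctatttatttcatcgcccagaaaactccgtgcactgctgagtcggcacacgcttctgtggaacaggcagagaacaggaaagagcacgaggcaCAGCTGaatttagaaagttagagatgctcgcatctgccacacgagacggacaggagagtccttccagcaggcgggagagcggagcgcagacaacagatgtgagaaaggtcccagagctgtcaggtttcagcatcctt
Mybpc2: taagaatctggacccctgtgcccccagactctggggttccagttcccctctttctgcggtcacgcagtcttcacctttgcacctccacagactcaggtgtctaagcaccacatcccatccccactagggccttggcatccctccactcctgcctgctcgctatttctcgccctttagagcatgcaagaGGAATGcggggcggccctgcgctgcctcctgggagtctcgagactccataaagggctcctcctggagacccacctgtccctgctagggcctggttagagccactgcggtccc

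The windows of Myh1 and Myh8 hold the same 10 letters of the MEF2 motif, which begin 211 bases before the start in Myh1 and 99 bases before it in Myh8, and in each a TATAAA match on the opposite strand lies inside them. Myh1 has a further TATAAA match that begins 32 bases before the start. MEF2 factors, serum response factor (CArG boxes), TEAD factors (CATTCC) and myogenic factors such as MyoD (E-boxes, here CAGCTG) are known regulators of muscle genes. Of the 38 sarcomere genes, 29 had at least 1 of 34 windows. A MEF2 motif was found in 17.6% of these windows compared with 3.19% of all 32851 windows, CArG in 20.6% compared with 1.63%, CATTCC in 32.4% compared with 14.7%, CAGCTG in 38.2% compared with 16.3%, and TATAAA in 26.5% compared with 13.6%. CATTCC was found in 5 of 7 fast windows and 3 of 13 slow windows, and CAGCTG in 3 of 7 fast windows and 7 of 13 slow windows. These matches are a description of letters, and no binding was measured.

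Transcripts of one gene can differ between probes, and several of these genes have many splice forms. In the fit over every kept probe, 21 of the 79 probes of sarcomere genes passed for UR compared with HFD, 17 higher and 4 lower, where 21.1% of all probes passed. For HFD compared with ND, 14 passed (5 higher and 9 lower), where 13.4% of all probes did, and for UR compared with ND 26 passed (16 higher and 10 lower), where 15.1% did. Of the 19 genes with more than 1 kept probe, Ttn and Tpm3 had probes called in opposite directions for UR compared with HFD, and Ttn and Myl1 for UR compared with ND. The probes described next were singled out after their values were seen.

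Titin, encoded by Ttn, spans from Z-disc to M-band and exists in splice forms of different length and stiffness. Its brightest probe, which stood for the gene above, did not pass for UR compared with HFD (log2 fold change 0.03, adjusted p = 0.583, limma), but of its 10 kept probes 5 were higher in UR and 1 was lower. Probe ILMN_2443220 had 3053, 3063 and 3157 in UR, 1920, 1538 and 1926 in HFD and 1944, 1941 and 2239 in ND, a log2 fold change of 0.79 for UR compared with HFD (SE 0.08, adjusted p = 3.47e-05, limma). Probe ILMN_1231542 had 10546, 8894 and 9282 in UR, 6031, 6589 and 6924 in HFD and 5943, 6078 and 7254 in ND (0.55, adjusted p = 0.000433, limma). On both probes the UR arrays stood above all HFD and ND arrays. Probe ILMN_1228221 ran the other way, with 729, 727 and 715 in UR, 879, 934 and 832 in HFD and 905, 897 and 860 in ND (log2 fold change -0.28, adjusted p = 0.00371, limma). The other 3 probes that rose had log2 fold changes of 0.53, 0.65 and 0.76. The exon or transcript that each probe reads was not analysed here.

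**Figure D3:**
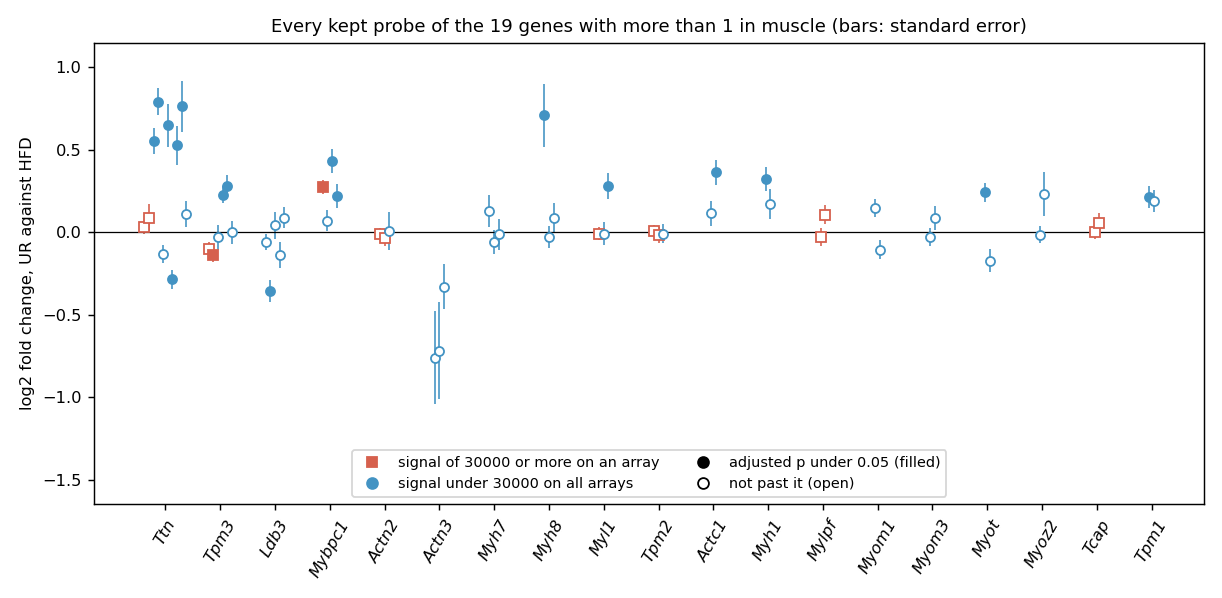
Log2 fold change for UR compared with HFD in muscle of every kept probe of the 19 genes with more than 1, with bars of 1 standard error, squares for probes with a signal of 30000 or more on an array, circles for dimmer probes and filled symbols for an adjusted p below 0.05. The 5 Ttn probes that rose stand above 0.5, while the bright Ttn probes lie near 0 and 1 dimmer probe lies at -0.28.

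For Tpm3, whose brightest probe did not pass, the dimmer probes ILMN_2426965 (0.23, adjusted p = 0.00848, limma) and ILMN_2426966 (0.28, adjusted p = 0.0093, limma) were higher in UR than in HFD, and the bright probe ILMN_2443164 was lower (log2 fold change -0.14, adjusted p = 0.0297, limma). For Ldb3, probe ILMN_2713622 had 4358, 3950 and 3593 in UR, 5058, 5004 and 5118 in HFD and 3335, 3821 and 3672 in ND, with HFD above both other groups. It fell in UR compared with HFD by 0.36 on the log2 scale (adjusted p = 0.00274, limma) and rose in HFD compared with ND by 0.49 (adjusted p = 0.000548, limma), and the other 4 kept probes of Ldb3 were not called for UR compared with HFD. The second probe of Myh1 gave 0.17 for UR compared with HFD (adjusted p = 0.189, limma) and -0.49 for HFD compared with ND (adjusted p = 0.00384, limma), so that the lower level in HFD than in ND was shared by both probes, while each of the other comparisons was past the test on 1 of them.

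Other genes of the sarcomere and of fibre type were read from lists. Of 31 further sarcomere and Z-disc genes, 5 (16.1%) were higher and 3 (9.68%) lower in UR compared with HFD, beside 11.5% and 11% of all genes, and 3 (9.68%) higher and 5 (16.1%) lower in HFD compared with ND, beside 7.61% and 7.76%. Xirp2, an actin-binding protein of the Z-disc region and the muscle-tendon junction, had 27553, 25617 and 24345 in UR, 19142, 19927 and 18584 in HFD and 19927, 19142 and 22535 in ND, and was higher in UR than in HFD by 0.43 (adjusted p = 0.000507, limma). Cfl2, the muscle cofilin that severs actin, was higher in UR than in HFD (0.58, adjusted p = 0.000584, limma) and lower in HFD than in ND (-0.35, adjusted p = 0.0152, limma). Csrp3, the Z-disc protein MLP, had 41912, 36686 and 31238 in UR, 41270, 44356 and 38696 in HFD and 23268, 23521 and 28384 in ND. The stretch-responsive Ankrd2 had 21896, 20302 and 17913 in UR, 22408, 22347 and 22651 in HFD and 15761, 16563 and 17182 in ND. Both were higher in HFD than in ND, by 0.73 (adjusted p = 0.000384, limma) for Csrp3 and 0.45 (adjusted p = 0.000518, limma) for Ankrd2, and every array of both high-fat groups lay above the ND arrays. With arrays scaled to a common median these calls of Xirp2, Cfl2, Csrp3 and Ankrd2 held, and the list gave 5 higher and 1 lower for UR compared with HFD and 2 higher and 8 lower for HFD compared with ND.

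Non-sarcomeric markers of fibre type gave values in the same comparisons. Of all genes, 7.61% were higher and 7.76% lower in HFD compared with ND, and 11% were lower in UR compared with HFD. Of 8 slow-fibre genes tested, 3 were higher in HFD compared with ND, namely sarcolipin (Sln, 0.38, adjusted p = 0.00561, limma), the slow calsequestrin Casq2 (0.29, adjusted p = 0.0142, limma) and the fatty acid binding protein Fabp3 (0.18, adjusted p = 0.0337, limma), and 0 passed by limma for UR compared with HFD, where 1 had an unadjusted p below 0.05, 0 passed by rank products and 0 by the methods' t-test after adjustment. Of 12 fast-fibre genes, 3 were lower in HFD compared with ND, namely the phosphorylase kinase subunit Phkg1 (-0.32, adjusted p = 0.00570, limma), glycerol-3-phosphate dehydrogenase Gpd1 (-0.26, adjusted p = 0.00946, limma) and Pvalb (-0.68, adjusted p = 0.0173, limma), and the muscle creatine kinase Ckm was lower in UR compared with HFD (-0.22, adjusted p = 0.00990, limma). With arrays scaled to a common median, 0 slow-fibre genes were higher and 1 was lower in HFD compared with ND, so that the calls of Sln, Casq2 and Fabp3 were lost, whereas those of Phkg1, Gpd1 and Pvalb, and that of Ckm for UR compared with HFD, held. For HFD compared with ND that scaling moved the median of all genes from 0.01 to -0.11, which favours lower calls over higher ones. It therefore cannot tell whether the slow and the fast calls differ in firmness.

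Among 27 regulators of fibre type tested, 1 (3.70%) was higher and 7 (25.9%) lower in UR compared with HFD. The shares of all genes were 11.5% and 11%. In HFD compared with ND, 2 regulators (7.41%) were higher and 2 (7.41%) lower, beside 7.61% and 7.76% of all genes. With arrays scaled to a common median 4 were lower in UR compared with HFD, among them Ppargc1a, Rcan1 and Vgll2. Ppargc1a, the coactivator PGC-1alpha that drives mitochondrial and slow-fibre genes, had 2070, 1489 and 1504 in UR, 2735, 2353 and 3045 in HFD and 2715, 1915 and 2037 in ND. The UR arrays lay below the HFD arrays (log2 fold change -0.69, SE 0.14, adjusted p = 0.00373, limma) and overlapped with ND. Rcan1, a calcineurin target and inhibitor, had 11760, 9249 and 8667 in UR, 15140, 13873 and 15604 in HFD and 10102, 12754 and 13104 in ND (-0.60 for UR compared with HFD, adjusted p = 0.00191, limma). Vgll2, a TEAD cofactor of skeletal muscle, had 7534, 7178 and 6031 in UR, 8799, 9142 and 9949 in HFD and 8667, 8106 and 8878 in ND (-0.43, adjusted p = 0.00157, limma). On Vgll2 every UR array lay below all HFD and ND arrays. Between HFD and ND, Tead4, a TEAD transcription factor, was higher (0.32, adjusted p = 0.00187, limma), and Sox6, which represses slow-fibre genes, was lower (-0.28, adjusted p = 0.0170, limma).

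In WAT, 16 of the sarcomere genes were tested. Of 6 further muscle-fibre markers, Ckm, Casq1 and Atp2a1 were detected on 0 of the 9 WAT arrays and Mb on 2, and 2 genes, Pvalb and the calcium release channel Ryr1, passed the filter. Both were higher in HFD than in ND, Pvalb with 1352, 1284 and 1442 in UR, 1100, 1190 and 776 in HFD and 228, 214 and 241 in ND (log2 fold change 2.14, adjusted p = 1.23e-07, limma), and Ryr1 with 480, 532 and 478 in UR, 470, 431 and 446 in HFD and 312, 303 and 274 in ND (0.60, adjusted p = 2.42e-05, limma). The summed signal of the genes of this list that passed was 1815 to 1920 in UR, 1222 to 1622 in HFD and 515 to 540 in ND. Between UR and HFD, where 6.98% of all 10753 genes passed, 0 of 16 passed by limma, 2 had an unadjusted p below 0.05 (Actn3 and Tpm2), 0 passed by rank products and 0 by the methods' t-test after adjustment. Between HFD and ND 10 of 16 passed, 6 higher and 4 lower, where 42.9% of all genes did, 20.5% upward and 22.4% downward. Tpm3, which also encodes non-muscle tropomyosins, had 2749, 2741 and 2505 in UR, 2749, 2808 and 2755 in HFD and 1731, 1759 and 1807 in ND, and rose in HFD compared with ND by 0.65 (adjusted p = 2.41e-06, limma). Acta1 had 3366, 3731 and 4395 in UR, 4016, 3276 and 2593 in HFD and 6402, 4672 and 5935 in ND, and fell in HFD compared with ND by 0.79 (adjusted p = 0.00118, limma). Myl1 had 8556, 8127 and 8564 in UR, 8821, 9781 and 9436 in HFD and 13325, 10990 and 12798 in ND, and fell by 0.40 (adjusted p = 0.000686, limma). On all 3 genes the HFD and ND arrays did not overlap.

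Myl4 (0.39, adjusted p = 0.00334, limma), Tnni2, the fast troponin I (0.33, adjusted p = 0.00147, limma), and Myom3 (0.37, adjusted p = 0.0115, limma) were higher in HFD than in ND in WAT. In these arrays the macrophage marker sums were 44048 to 50149 in HFD and 24145 to 26628 in ND, the smooth muscle sums 30878 to 39853 in HFD and 28121 to 36768 in ND, and the mesothelium sums 2016 to 2665 in HFD and 3060 to 3433 in ND. The part of these cell types, and of the muscle-fibre markers Pvalb and Ryr1, in the WAT values was not tested.

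In liver, 13 of the sarcomere genes were tested, most of them close to background. In UR compared with HFD, 3 were lower and 0 higher, where 54.7% of all 9784 genes passed, 19.3% upward and 35.4% downward. Myom1 had 183, 183 and 187 in UR and 277, 282 and 267 in HFD (log2 fold change -0.58, adjusted p = 2.59e-05, limma). Myh8 had 167, 155 and 167 in UR, where it was detected on no array, and 233, 241 and 237 in HFD, at least 1.31-fold lower in UR (adjusted p = 1.48e-05, limma). Actn3 was lower by a log2 fold change of -0.23 (adjusted p = 0.00819, limma). After median scaling the same comparison gave 3 sarcomere genes higher and 3 lower, and all genes 3282 higher and 1162 lower in place of 1887 and 3461. Between HFD and ND, 4 of 13 passed, 2 higher and 2 lower, where 28.5% of all genes did, 16.7% upward and 11.7% downward. Tpm2, the beta-tropomyosin, which smooth muscle and fibroblasts also express, had 1111, 1048 and 1010 in HFD and 396, 311 and 382 in ND and rose by 1.55 (adjusted p = 4.00e-07, limma). Tpm1 had 1630, 1978 and 1813 in HFD and 1310, 1333 and 1306 in ND and rose by 0.45 (adjusted p = 0.0012, limma). Myh7 (-0.24, adjusted p = 0.00804, limma) and Tnnt1, the slow troponin T (-0.41, adjusted p = 0.0311, limma), were lower. The sums of the 2 smooth muscle markers tested in liver were 1324 to 1625 in HFD and 769 to 1010 in ND, and their part in the result was not tested.

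The responses of muscle and WAT were compared on the same probe for the 16 genes tested in WAT. The difference between tissues (muscle minus WAT) passed for 6 genes for HFD compared with ND, where 36% of all 8773 genes passed, and for 2 genes for UR compared with HFD, where 20.8% did. In HFD compared with ND, the log2 fold changes of Acta1 were 0.12 (muscle) and -0.79 (WAT), a difference of 0.92 (adjusted p = 0.000252, limma). Ldb3, read on the probe with the higher HFD level described above, had 0.49 in muscle and -0.19 in WAT, a difference of 0.68 (adjusted p = 1.16e-05, limma). Myom1 had -0.24 in muscle and 0.19 in WAT, a difference of -0.43 (adjusted p = 0.00112, limma). These 3 genes had opposite signs in the tissues on these probes. The muscle probe of Acta1 lay above 50000 on every array, and the second probe of Myom1 gave 0.11 in muscle and 0.02 in WAT, of which neither passed.

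**Figure D4:**
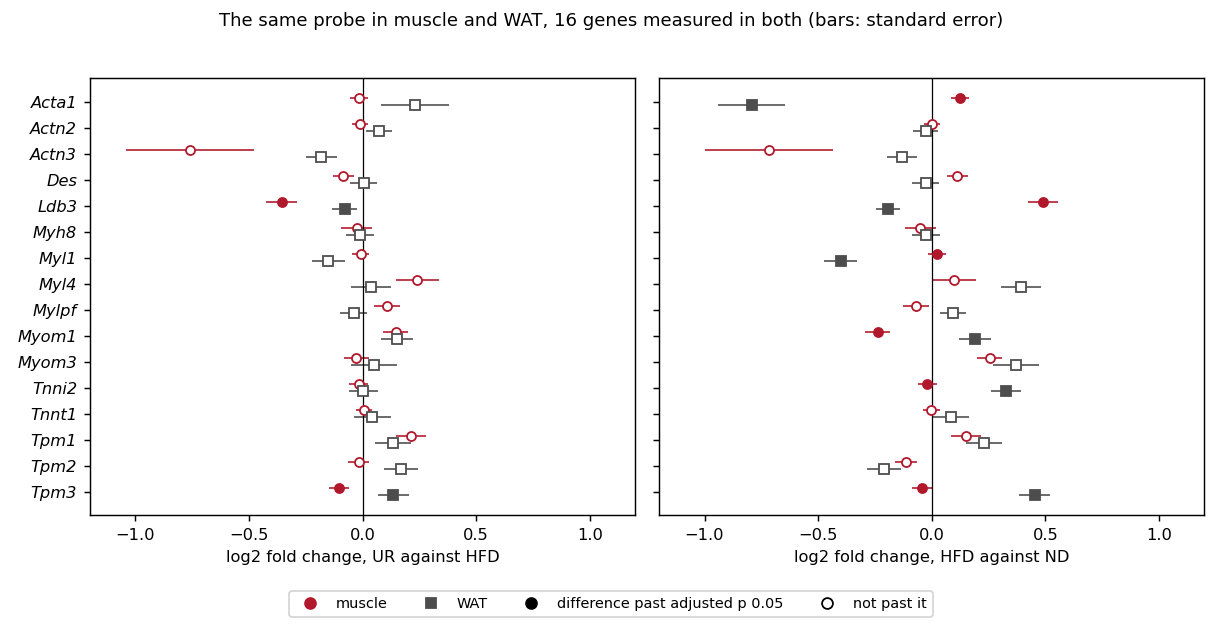
Log2 fold changes of the 16 sarcomere genes tested in both tissues, on the same probe in muscle (circles) and WAT (squares), for UR compared with HFD (left) and HFD compared with ND (right), with bars of 1 standard error. Filled symbols mark genes whose difference between tissues passed the test (adjusted p below 0.05), and Acta1 and Ldb3 lie farthest apart for HFD compared with ND.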

How the data were processed

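RNA was measured on 27 Illumina mouse whole-genome BeadChips, 3 per diet in each of 3 tissues. The deposited values were signal intensities per probe, exported by the authors without normalisation between arrays, and a detection p-value per probe deposited beside each signal. The sources used here do not state whether background had been subtracted, the lowest signal was 77.3 and 0 signals were at or below 0. A series table deposited by the authors held quantile-normalised log2 values. Its 9 muscle columns equalled the WAT columns in 100% of rows and were not used, whereas those of liver and WAT differed from the values computed here by at most 0.121. The sources used here name no genome build for the probes.

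Probes were named through the platform annotation, in which 34885 of 45281 probes had 1 gene symbol, 18 had several and were left out, and 34807 were matched to RefSeq. Signals were quantile-normalised within a tissue and log2-transformed. Probes with a detection p below 0.05 on each of the 3 arrays of a group, in 1 group or more, were retained (16332 in muscle, 19455 in WAT and 17518 in liver), and the brightest stood for its gene. Differences were tested by limma 3.58.1 in R 4.3.3 on all 9 arrays of a tissue (eBayes with trend, Benjamini-Hochberg over all genes, adjusted p below 0.05), and muscle and WAT in 1 model with an interaction.

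Values per array are given for the adult heavy chains, for genes past the threshold with groups that did not overlap and for developmental isoforms, for up to 4 genes of smallest p in other lists, and for up to 6 genes in WAT and liver. Genes named outside this rule were chosen after their values were seen. The genes and lists were chosen with earlier results of these data known. Alternatives covered background correction, scaling, filters, the probe chosen, the variance model, the methods' rank products and t-test, thresholds, the replicate number as a block and leaving out each array, and 1 was added after the data were seen (the brightest probe under 30000). Replicate numbers did not meet the rule for pairs (a shared label, or every same-numbered correlation over 0.1) and were used only as names.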

Additional observations from a re-analysis of the deposited data

Results flagged for a closer look

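For 8 results, the response to a diet differed between muscle and WAT by a test of the difference itself (limma interaction, adjusted p below 0.05, the same probe in both tissues). Of all 8773 genes in that test, 36% passed for HFD compared with ND and 20.8% for UR compared with HFD. For HFD compared with ND, muscle minus WAT was 0.918 on the log2 scale for Acta1, 0.682 for Ldb3, 0.424 for Myl1, -0.429 for Myom1, -0.348 for Tnni2 and -0.496 for Tpm3. For UR compared with HFD it was -0.278 for Ldb3 and -0.239 for Tpm3. Myl1 had log2 fold changes of 0.02 in muscle and -0.40 in WAT, Tnni2 had -0.02 in muscle and 0.33 in WAT, and Tpm3 had -0.04 in muscle and 0.45 in WAT for HFD compared with ND. For UR compared with HFD, Ldb3 had -0.36 in muscle and -0.08 in WAT, and Tpm3 had -0.10 in muscle and 0.14 in WAT. Tpm3 was read here on a probe dimmer in WAT than the one that stood for it in the WAT results. That brighter WAT probe gave 0.65 for HFD compared with ND and -0.06 for UR compared with HFD, so the sign of the latter differed between WAT probes. The muscle probes of Acta1, Myl1, Tnni2 and Tpm3 lay above 50000 on every array, and the part of that limit in the differences was not tested.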

How the results depend on the processing

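Of 7 sarcomere genes called in muscle for UR compared with HFD, the counts were 2 when every kept probe had to pass, 11 with the replicate block, 3 by rank products, 1 by the methods' t-test after adjustment, 3 at an unadjusted p below 0.05 with a log2 fold change over 0.5, and 4 at an adjusted p below 0.01, and leaving out 1 array gave 5 (without HFD pool 1) to 8. In HFD compared with ND (8 called) they were 4, 9, 4, 0, 2 and 3, with 13 by the methods' t-test unadjusted and 5 (without ND pool 2) to 9 without 1 array. In UR compared with ND (13 called) they were 7, 14, 4, 0, 3 and 5, with 4 without normalisation, 8 without the trend and 7 (without UR pool 2) to 12 without 1 array. Same-numbered muscle arrays correlated at -0.105 to 0.132 in their deviations, so the block rests on a number only. Actn3 passed with it for UR compared with HFD (adjusted p = 0.0042, limma) and for HFD compared with ND (adjusted p = 0.00806, limma). Without normalisation the muscle fit had an infinite prior, so that its p-values take no account of a gene's own spread.

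In WAT, 0 called for UR compared with HFD became 2 without normalisation and 3 by the methods' t-test unadjusted (0 to 0 without 1 array), and 10 for HFD compared with ND became 1 by rank products, 3 by the adjusted t-test, 2 at the fold limit and 5 at the stricter threshold (7 to 9 without 1 array). In liver, 3 for UR compared with HFD became 6 with median scaling, 10 without normalisation, 6 without the filter, 0 by rank products and 5 by the unadjusted t-test (3 to 4 without 1 array), and 4 for HFD compared with ND became 1 by rank products and 1 at the fold limit (3 to 5). The 2 genes that differed between tissues for UR compared with HFD became 0 with neqc, 0 at both other thresholds, 1 with all arrays normalised together, with median scaling, without normalisation, without the filter, with the mean of probes or with every probe, and 0 (without WAT HFD pool 2) to 3 without 1 array. The 6 for HFD compared with ND became 2 at the fold limit (6 to 7).

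The median of slow genes in muscle was 0.02 for UR compared with HFD and became -0.05846 with median scaling, 0.0474 without normalisation and 0.0714 with probes under 30000. For fast genes -0.02 became -0.0727 with median scaling and 0.0331 without normalisation. Between HFD and ND, slow genes moved to -0.03503 without normalisation, and fast genes, at -0.10, to -0.1654, -0.192 and -0.3147 (the 3 settings in order) and -0.0381 with probes detected on every array. Between UR and ND, slow genes, at 0.01, moved to -0.02973, 0.0496 and 0.0202, and fast genes, at -0.08, to -0.201, -0.122 and -0.210. Among values past the threshold in the main fit or in the alternative, the sign turned for Ldb3 in HFD compared with ND (-0.0119 without normalisation). It also turned for Tnnt3 in UR compared with ND (-0.0484 with median scaling). With probes under 30000, Mybpc1 gave 0.07 for UR compared with HFD (adjusted p = 0.441, limma). Of 2070 values of single genes under alternatives, 1759 were counted as kept, 244 lost the call, 65 gained one and 2 reversed. A value past the threshold in neither fit was counted as kept even where its sign turned. Acta1 for UR compared with HFD, for example, ran from -0.07 to 0.04. The cause of these changes was not tested. The series table for muscle, and rank products, the t-test and the 2-group fit for the tissue difference, were not run. Array number and bright probes limit the precision.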

Other observations

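Genes that respond to denervation and regeneration of muscle were read in the same arrays. Of 4 tested, Chrna1, the acetylcholine receptor alpha subunit, had 3019, 2942 and 3117 in UR, 2450, 2495 and 2723 in HFD and 3103, 3394 and 3299 in ND, so that HFD lay below both other groups. It was higher in UR than in HFD by 0.24 (adjusted p = 0.00797, limma) and lower in HFD than in ND by a log2 fold change of -0.35 (adjusted p = 0.00136, limma), of which the first was lost with arrays scaled to a common median (adjusted p = 0.0806, limma). Gadd45a, a growth-arrest gene that rises in denervated and wasting muscle, had 624, 689 and 823 in UR, 615, 605 and 515 in HFD and 1000, 992 and 817 in ND. It was lower in HFD than in ND (-0.69, adjusted p = 0.00095, limma), and 0.29 for UR compared with HFD did not pass (adjusted p = 0.0540, limma). Ncam1, a cell adhesion gene of denervated fibres and satellite cells, was higher in HFD than in ND (0.27, adjusted p = 0.0299, limma), a call lost under that scaling.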
